A study of Homo sapiens with 6 samples.

Results

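The genes described here are HSPA12A and other members of the human HSP70 family in LoVo cells, taken as the rows of the deposited gene count table whose gene name is HSPA12A, HSPA12B, HSPA13, HSPA14, HSPA1A, HSPA1B, HSPA2, HSPA4, HSPA6 or HSPA8. The 10 names matched 11 of 58735 rows, because HSPA14 is the name of 2 Ensembl genes, which are told apart below by their identifiers. Of the 11 rows, 10 passed the filter on low counts (at least 10 counts in at least 3 libraries) and were tested, and HSPA6 did not.

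LoVo is an established human colorectal cancer cell line. Cells were transfected with a negative control siRNA (si-NC, 3 libraries) or with an siRNA against the splicing factor SRSF11 (si-SRSF11, 3 libraries), and polyadenylated RNA was sequenced. The time of harvest and which of the SRSF11 siRNAs was used were not given in the sources used here, and the study calls the RNA samples independent without saying whether they came from separate cultures, so p-values measure only the spread between these samples, which may be technical. The study examined HSPA12A as a splicing target of SRSF11, and gene counts show the summed RNA of a gene and not its splice variants.

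HSP70 proteins are ATP-driven chaperones that bind exposed hydrophobic stretches of unfolded proteins. J-domain proteins deliver the client and start ATP hydrolysis, nucleotide exchange factors release ADP and then the client, and some clients are passed on to HSP90 through adaptor proteins. HSPA8 is the constitutive form of the cytosol, HSPA1A, HSPA1B and HSPA6 are the stress-inducible forms, and HSPA12A and HSPA12B are distant, atypical members whose ATPase domain departs from the rest of the family.

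Libraries held between 14369525 and 16685719 counts. SRSF11 stood at 57.2% of its si-NC level in si-SRSF11 libraries, and no library overlapped between the groups. The labelled cell type was checked by 10 markers of colon epithelium, which were all measured and summed to between 5390 and 5830 CPM (counts scaled to library size with TMM factors) in the 6 libraries. KRT8 (3140 CPM in si-NC) and KRT18 (1180 CPM) carried most of this sum, while KRT20 (0.701 CPM) and CEACAM5 (1.07 CPM) were close to the filter. CDX1 (1.24-fold, adjusted p = 0.00118 from edgeR) and CDX2 (1.32-fold, adjusted p = 0.000385 from edgeR) were higher in si-SRSF11 cells. They were the 2 of the 10 markers called at an adjusted p under 0.05, beside 24.6% of all genes tested. Of the 5 leukocyte markers none passed the filter, PTPRC was at 0 in all 6 libraries and LYZ had between 2 and 19 counts. In the fibroblast list DCN and LUM were at 0, but COL1A1 had between 179 and 206 counts. In the endothelial list KDR was at 0, and PECAM1 (6 to 21 counts) and VWF (5 to 23 counts) passed the filter. In bulk RNA such as this, fewer cells expressing a gene and less RNA per cell cannot be told apart.

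The exon that gave HSPA12A its place in the study and the stretches before the family's start sites that hold heat shock elements are shown here because the counts below are read beside them. HSPA12A lies at chr10:116671192-116850236 on the minus strand of GRCh38. Exon 2 of the transcript ENST00000453491.3 lies at chr10:116835198-116835257, is 60 bases long and is printed 5′ to 3′ from GENCODE 29, with the hexamer GACTCA, at bases 15 to 20 of the exon, in capitals:
HSPA12A exon 2: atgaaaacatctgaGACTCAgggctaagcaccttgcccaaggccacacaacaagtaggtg
The annotation gives ENST00000453491.3 no coding region. It has 4 exons and 4894 nt, and the same hexamer occurs once more in its exon 4, at bases 4046 to 4051 of the 4610. The wider pattern given in the study, GACTCA or GACCCA, occurs at 3 sites in exon 4 and at 1 site in exon 2. Of the 7 annotated transcripts, ENST00000453491.3 was the only one with this exon 2, and the 4 protein-coding transcripts lack it.

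Heat shock factor 1, the transcription factor that drives the stress-inducible chaperone genes, binds inverted repeats of the unit GAA. The 250 bases before each RefSeq start (GRCh38.p14) were searched on both strands, with overlaps allowed, for 2 units (GAANNTTC or TTCNNGAA) and for 3 units (GAANNTTCNNGAA or TTCNNGAANNTTC). A promoter was found for 8 of the 10 names, all but HSPA14 and HSPA12B. Stretches with 3 units, or with 2 units where no 3 were found, are printed 5′ to 3′ on the strand of the gene with the units in capitals and 8 bases on each side:
HSPA8, 230 bases before the start, chr11:123062346-123062374, minus strand: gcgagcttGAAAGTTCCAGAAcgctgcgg
HSPA8, 55 bases before the start, chr11:123062171-123062199, minus strand: cgggccccTTCTGGAAGGTTCtaagatag
HSPA6, 74 bases before the start, chr1:161524458-161524486, plus strand: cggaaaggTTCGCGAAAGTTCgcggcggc
HSPA1A, 106 bases before the start, chr6:31815429-31815452, plus strand: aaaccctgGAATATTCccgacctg
HSPA1B, 105 bases before the start, chr6:31827625-31827648, plus strand: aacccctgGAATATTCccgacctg
HSPA8 and HSPA6 held 3 units, HSPA8 at both places, and HSPA1A and HSPA1B held 2. None of these patterns occurred before the starts of HSPA4, HSPA13, HSPA2 or HSPA12A. Over all 35116 promoters of the same length, GAANNTTC occurred in 5.78%, TTCNNGAA in 6.62% and a pattern of 3 units in 0.441%. A match is a description of the sequence and does not show that a factor binds there. Only exact units were counted, so a stretch with a changed base in a unit, or one beyond the 250 bases, was missed.

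Family members spanned a wide range of RNA levels in LoVo cells. Levels of different genes are compared as CPM per kb of merged exons. In si-NC libraries HSPA8 was the most abundant, with a mean of 62.2 CPM per kb, followed by HSPA4 with 38.4 and HSPA13 with 16.3. The middle of the order held HSPA14 (ENSG00000284024) with 6.48, HSPA1B with 4.72, HSPA14 (ENSG00000187522) with 4.38 and HSPA12A with 1.66 CPM per kb. HSPA1B and ENSG00000187522 overlapped between their libraries and cannot be ordered. At the low end stood HSPA12B with 0.306, HSPA1A with 0.240 and HSPA2 with 0.161 CPM per kb, whose libraries overlapped from each to the next. HSPA1A and HSPA1B are near-identical in sequence. How reads that match both were counted was not given, so their levels may be too low and their places are uncertain. HSPA6 had a single read in si-NC replicate 2 and none in the other 5 libraries. A count of 0 allows up to 3 counts, which is between 0.180 and 0.209 CPM in these libraries and covers counting error only.

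The order in si-SRSF11 libraries was the same for HSPA8 (98.3 CPM per kb), HSPA4 (36.3), HSPA13 (15.7) and HSPA14 (ENSG00000284024, 7.03). ENSG00000187522 had 6.51 CPM per kb and HSPA1B 6.02, and neighbours in this stretch from ENSG00000284024 to HSPA1B overlapped. HSPA12A kept the seventh place with 1.90 CPM per kb, clear of HSPA1B above it and of HSPA12B (0.251) below it. The merged exons of HSPA12A cover 11834 bp, although its longest transcript has 5841 nt, so a level per kb of merged exons is lower than one per kb of that transcript.

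**Figure D1:**
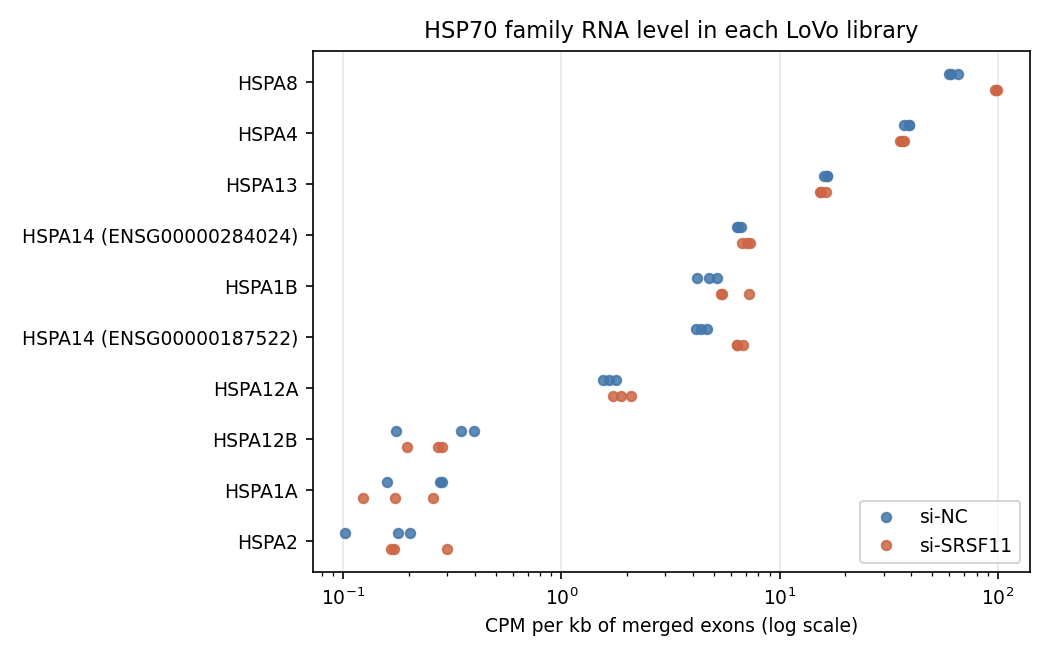
RNA level of 10 HSP70 family rows, in CPM per kb of merged exons on a log axis, with 1 point per library (blue si-NC, orange si-SRSF11, 3 each). HSPA8 lies highest with si-NC points below all si-SRSF11 points, HSPA12A lies between 1.54 and 2.08 in all libraries, and HSPA12B, HSPA1A and HSPA2 lie below 1; HSPA6, with 1 read in all, is not drawn.

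Of the 10 rows tested, 3 were higher in si-SRSF11 cells (HSPA8, HSPA14 ENSG00000187522 and HSPA1B) and none was lower, at an adjusted p under 0.05 from edgeR's quasi-likelihood test. Over all 15801 genes tested, 24.6% were called, 13.2% higher and 11.4% lower. Scaling by library size alone in place of TMM turned the split over all genes from 2081 higher and 1805 lower to 1585 higher and 2289 lower and shifted the median of all genes by less than 0.1 on the log2 scale. The libraries of the 2 groups did not overlap for 5 of the 10 rows, beside 38.8% of all genes tested. None of the 10 had an absolute log2 fold change over 1, which 1.09% of all genes passed together with the p threshold. The median log2 fold change was 0.16 over the 10 rows and 0.00 over all genes tested. The 10 rows, the 5 without overlap and this median include ENSG00000284024, listed as MSANTD7 in a newer table of gene names.

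**Figure D2:**
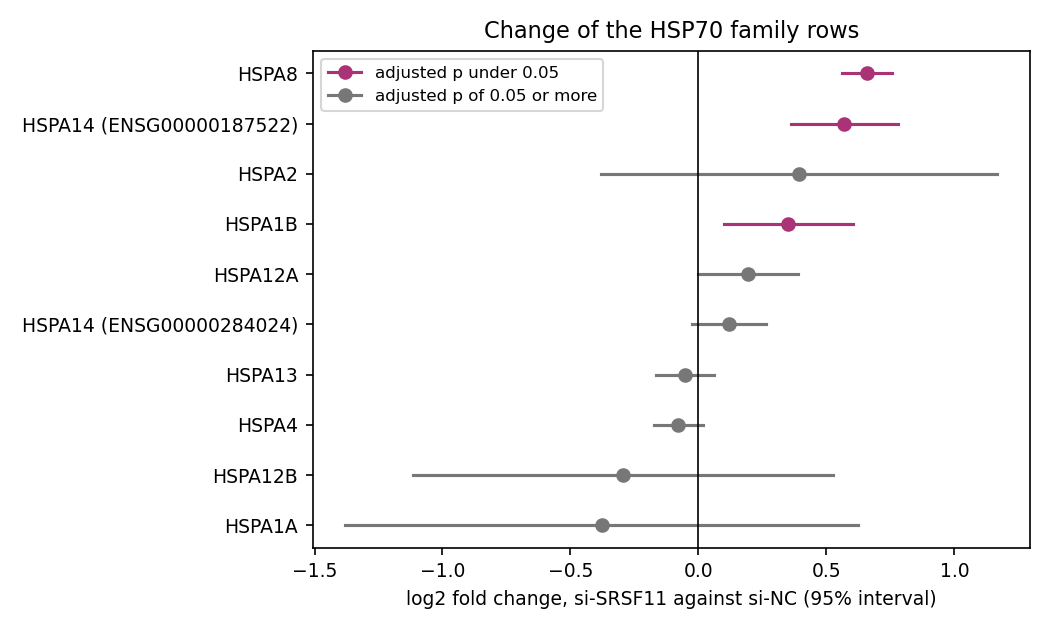
Log2 fold change in si-SRSF11 against si-NC cells for the 10 tested HSP70 family rows, with 95% intervals (horizontal lines), in purple where the adjusted p was under 0.05 and in grey otherwise. HSPA8, HSPA14 (ENSG00000187522) and HSPA1B lie right of 0 with their intervals, and the intervals of HSPA2, HSPA12B and HSPA1A are the widest.

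HSPA8 (HSC70, chr11:123057489-123063230, minus strand), the constitutive cytosolic chaperone that also serves clathrin uncoating and chaperone-mediated autophagy, had 4314, 4399 and 4956 counts in the si-NC libraries, given here and below in order of replicate number. The si-SRSF11 libraries held 7532, 7744 and 7702. All si-SRSF11 libraries lay above all si-NC libraries, with little spread within either group. The mean was 302 ± 14.8 CPM in si-NC and 477 ± 4.64 CPM in si-SRSF11 cells (SD, n = 3 each). The rise was 1.58-fold (log2 fold change 0.66, standard error 0.047, 95% interval 0.56 to 0.76, adjusted p = 1.41e-09 from edgeR). Leaving out single libraries gave log2 fold changes between 0.63 and 0.70. Its exons share 87 and 88 bases with the small nucleolar RNA genes SNORD14D and SNORD14C, which had 0 counts. No stretch of 100 bases of its longest transcript was found in an annotated transcript of another gene.

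HSPA1B (chr6:31827735-31830255, plus strand), one of a pair of neighbouring stress-inducible genes that encode almost the same protein, had 154, 183 and 203 counts in the si-NC libraries. In the si-SRSF11 libraries it had 216, 221 and 296 counts. The groups did not overlap, and si-SRSF11 replicate 3 stood well above the other two. HSPA1B was 1.28-fold higher, with means of 11.9 ± 1.21 CPM and 15.2 ± 2.57 CPM (SD, n = 3 each) and a log2 fold change of 0.35 (95% interval 0.10 to 0.60, adjusted p = 0.0388 from edgeR). The call rested on single libraries: without si-SRSF11 replicate 3 the log2 fold change was 0.20 (adjusted p = 0.248), without si-NC replicate 1 it was 0.28 (adjusted p = 0.169) and without si-NC replicate 2 it was 0.36 (adjusted p = 0.0892).

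HSPA1A (chr6:31815464-31817946, plus strand) was near the filter, with 10, 6 and 11 counts in si-NC and 10, 7 and 5 counts in si-SRSF11 libraries, and the groups overlapped. Its log2 fold change was -0.38 with a 95% interval of -1.38 to 0.62 (adjusted p = 0.614 from edgeR). HSPA1A and HSPA1B are near-identical: 69.9% of the 100-base windows of HSPA1A occur in HSPA1B, and 68.8% of those of HSPA1B occur in HSPA1A. The split of reads between them is therefore uncertain. If reads that match both were not counted, the counts of both genes are too low. HSPA1B also shares 920 exon bases, 36.5% of its exons, with AL671762.1, which had 0 counts. Summed to a single row, HSPA1A and HSPA1B had a log2 fold change of 0.32 (adjusted p = 0.0492 from edgeR).

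HSPA6, the third inducible gene, which is nearly silent in unstressed cells, had 0, 1 and 0 counts in si-NC and 0 counts in each si-SRSF11 library. No fold change can be given, and 27.6% of its 100-base windows occur in the pseudogene HSPA7, which had 1 count in each of si-SRSF11 replicates 1 and 2. The share of the inducible genes HSPA1A, HSPA1B and HSPA6 among all family counts was 1.77%, 1.99% and 2.06% in the si-NC libraries and 1.74%, 1.71% and 2.26% in the si-SRSF11 libraries. Both groups covered much the same range (p = 0.80 by an exact two-sided permutation test). The share also depends on HSPA8, which made up 46.1% to 47.6% of the family's counts in si-NC and 57.9% to 58.1% in si-SRSF11 libraries. A flat share therefore does not show that the inducible genes were unchanged. HSPA1A and HSPA1B summed had a log2 fold change of 0.32 (adjusted p = 0.0492 from edgeR).

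HSPA4 (APG-2, chr5:133051962-133106449, plus strand), an HSP110-type member that acts as a nucleotide exchange factor for other HSP70s, had 2919, 2910 and 3124 counts in si-NC libraries and 2985, 3035 and 3005 counts in si-SRSF11 libraries. Scaled to CPM, the groups did not overlap but lay close together, at 198 ± 5.47 and 187 ± 3.32 (SD, n = 3 each). Its log2 fold change of -0.08 had a 95% interval of -0.18 to 0.02 (adjusted p = 0.233 from edgeR). HSPA13 (STCH, chr21:14371115-14383484, minus strand), a microsomal member that lacks the substrate-binding domain, had a mean of 68.5 ± 1.53 CPM in si-NC and 66.1 ± 2.16 CPM in si-SRSF11 cells (SD, n = 3 each), and its groups overlapped. Its log2 fold change was -0.05 (95% interval -0.17 to 0.06, adjusted p = 0.52 from edgeR). HSPA4, HSPA8 and HSPA13 had the narrowest intervals of the family.

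HSPA14 is a ribosome-associated member that works with the J-domain protein DNAJC2 on nascent chains. The row ENSG00000187522 (chr10:14838164-14871741, plus strand) held 168, 165 and 192 counts in control libraries and 264, 273 and 293 counts in si-SRSF11 libraries. All si-SRSF11 libraries were higher, at 17.2 ± 0.654 CPM (SD, n = 3) against 11.6 ± 0.735 CPM (SD, n = 3). The log2 fold change was 0.57 (95% interval 0.36 to 0.78, adjusted p = 0.000248 from edgeR), a 1.48-fold rise, and it lay between 0.53 and 0.62 when single libraries were left out. The row ENSG00000284024 (chr10:14838160-14847018, plus strand), listed as HSPA14 in the deposited table and as MSANTD7 in a newer table of gene names, had 460, 497 and 488 counts in si-NC and 519, 583 and 568 counts in si-SRSF11 libraries. Its means were 31.9 ± 0.707 CPM and 34.6 ± 1.35 CPM (SD, n = 3 each), without overlap, and its log2 fold change of 0.12 (95% interval -0.03 to 0.26, adjusted p = 0.23 from edgeR) did not pass the test. Both rows share 460 exon bases, which are 17.4% of the exons of ENSG00000187522 and 9.34% of those of ENSG00000284024, and both share 36 bases with CDNF on the opposite strand. The library kit was not described as stranded, and how reads in shared exons were counted was not given in the sources used here.

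HSPA2 (chr14:64535905-64546173, plus strand), known for its part in spermatogenesis, had 17, 9 and 16 counts in si-NC and 15, 16 and 28 counts in si-SRSF11 libraries. The groups overlapped, and the 95% interval of its log2 fold change ran from -0.38 to 1.17 (adjusted p = 0.483 from edgeR). A log2 change of 1, the threshold used above, lay inside this interval.

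HSPA12A, known to be abundant in brain, stood at 18.3, 19.6 and 21.1 CPM in the si-NC libraries (265, 298 and 328 counts) and at 22.3, 24.7 and 20.5 CPM in the si-SRSF11 libraries (349, 401 and 334 counts). The groups overlapped, because si-SRSF11 replicate 3 fell below si-NC replicate 3 (p = 0.20 by an exact two-sided permutation test). The log2 fold change was 0.19 (standard error 0.093, 95% interval 0.00 to 0.39), and its p of 0.0496 from edgeR became 0.137 after adjustment over all genes. Without si-SRSF11 replicate 2, the highest library, the value was 0.12, and the range over all libraries left out in turn was 0.12 to 0.25, with adjusted p-values from 0.0588 to 0.441.

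**Figure D3:**
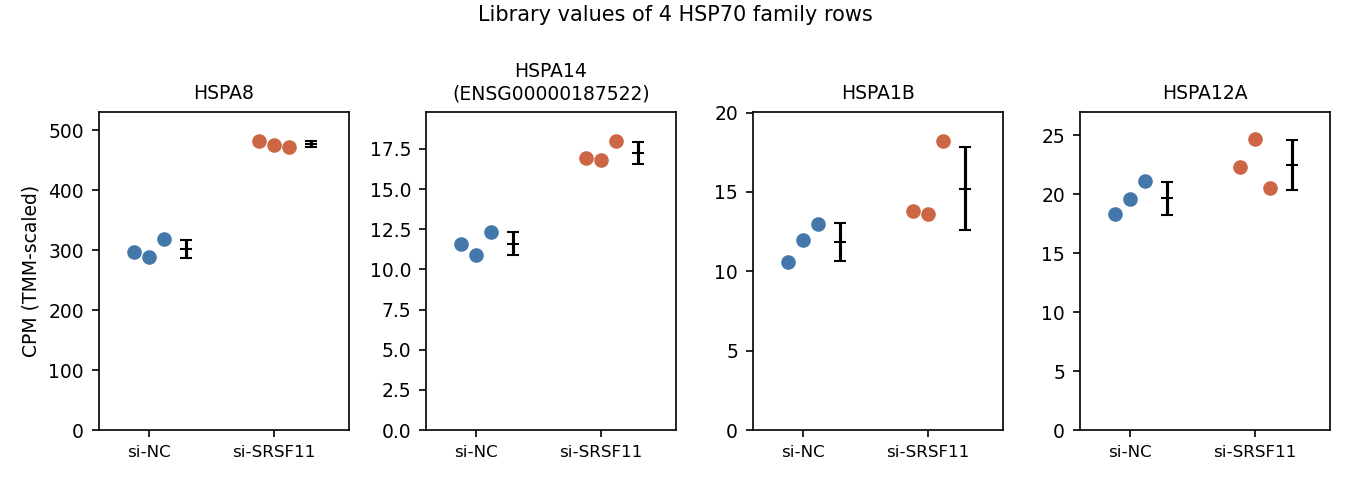
TMM-scaled CPM of HSPA8, HSPA14 (ENSG00000187522), HSPA1B and HSPA12A in each library (points, from left to right replicates 1 to 3 of each group), with the mean and SD of each group (black marks, n = 3). Groups are apart for the first 3 and overlap for HSPA12A, where si-SRSF11 replicate 3 (20.5 CPM) lies below si-NC replicate 3 (21.1 CPM).

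The printed exon is a small part of what the HSPA12A row counts. Exon 2 makes up 0.507% of the exon bases of the gene and ENST00000453491.3 as a whole 41.4%, so the row sums a processed transcript with protein-coding transcripts that hold 48.4% and 49.4% of those bases, and gene counts cannot tell the transcripts apart. HSPA12A shares 535 exon bases with AC016825.1, which had 0 counts, and 166 with ENO4, which had 126 counts over the 6 libraries, both on the opposite strand. No window of 100 bases of its longest transcript occurred in another gene.

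HSPA12B (chr20:3732667-3753111, plus strand), the paralog of HSPA12A known from endothelial cells, had 8, 19 and 17 counts in si-NC and 14, 10 and 14 counts in si-SRSF11 libraries. Its means were 0.964 ± 0.366 CPM and 0.790 ± 0.152 CPM (SD, n = 3 each), with overlapping groups and a 95% interval of the log2 fold change from -1.11 to 0.52 (adjusted p = 0.634 from edgeR). The 5 endothelial markers summed to between 1.48 and 2.57 CPM in si-NC and between 0.797 and 2.09 CPM in si-SRSF11 libraries, with 2 of the 5 passing the filter, and their part in the HSPA12B level was not tested. In si-NC libraries HSPA12A stood at 1.66 CPM per kb and HSPA12B at 0.306 CPM per kb.

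Summed over all 11 rows, the family reached 640.1, 627.8 and 668.7 CPM in si-NC and 829.6, 820.5 and 816.2 CPM in si-SRSF11 libraries. The sum and every share of the family's counts include ENSG00000284024 (means of 31.9 CPM in si-NC and 34.6 CPM in si-SRSF11), listed as MSANTD7 in a newer table of gene names. The sum was 1.27-fold higher, at 645.5 ± 20.9 against 822.1 ± 6.83 CPM (SD, n = 3 each), with no overlap (p = 0.10 by an exact permutation test, two-sided, the lowest value possible for groups of 3). Without HSPA8 the sum was 343.8 ± 6.15 CPM in si-NC and 345.3 ± 2.33 CPM in si-SRSF11 cells (SD, n = 3), with overlapping groups (p = 0.80 by the same exact test). HSPA8 made up between 46.1% and 47.6% of the family's counts in si-NC and between 57.9% and 58.1% in si-SRSF11 libraries. HSPA4 made up between 30.0% and 31.4% and then between 22.6% and 23.0%, where the shares of all members in a library add up to the whole.

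HSPA12A made up 2.85%, 3.12% and 3.15% of the family's counts in the si-NC libraries and 2.69%, 3.01% and 2.51% in the si-SRSF11 libraries. Its log2 ratio to the other rows, which no scaling between libraries touches, was -5.00 ± 0.0809 for si-NC and -5.16 ± 0.135 for si-SRSF11 (SD, n = 3 each), a difference of -0.16 (exact two-sided permutation test, p = 0.20). With HSPA8 left out of the other rows the difference was 0.20, of the opposite sign (exact two-sided permutation test, p = 0.20). The sign of the difference turned with HSPA8, and neither version separated the groups.

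The remaining genes of the HSP70 superfamily were HSPA1L, HSPA4L, HSPA5, HSPA7, HSPA9, HSPH1 and HYOU1. Of the 6 tested, 2 were higher and 1 was lower (50.0% called, beside 24.6% of all genes tested, median log2 fold change -0.04). HSPH1 (HSP105), the HSP110-type exchange factor of the cytosol, had 994, 1113 and 1118 counts in si-NC and 1262, 1541 and 1498 in si-SRSF11 libraries and rose 1.25-fold (log2 fold change 0.32, adjusted p = 0.000382 from edgeR). HSPA5 (BiP), the chaperone of the endoplasmic reticulum (ER), was 1.10-fold higher (log2 fold change 0.14, adjusted p = 0.0184 from edgeR). Without si-NC replicates 1, 2 and 3 in turn its log2 fold change was 0.141, 0.123 and 0.139, close to the value with all libraries, but the adjusted p from edgeR rose to 0.0756, 0.0986 and 0.0678. Scaling by library size gave 0.10 (adjusted p = 0.056). HSPA9 (mortalin), the mitochondrial form, fell to 89.1% of its si-NC level (log2 fold change -0.17, adjusted p = 0.00549 from edgeR). HYOU1 of the ER (0.05), HSPA4L (-0.13) and HSPA1L (-0.31) had log2 fold changes that did not pass the test, and HSPA1L turned to 0.15 without si-NC replicate 3.

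Of 49 J-domain proteins, 43 were tested, with 5 higher and 6 lower (25.6% called, beside 24.6% of all genes tested, median log2 fold change -0.05). The share is close to that of all genes, and the count fell to 7 without si-NC replicate 1 and to 7 without si-NC replicate 3. DNAJA1, a cytosolic partner of HSPA8, had 629, 738 and 626 counts in si-NC and 917, 962 and 949 in si-SRSF11 libraries, a 1.33-fold rise (log2 fold change 0.41, adjusted p = 8.19e-05 from edgeR). DNAJB9 (ERdj4), an ER partner of HSPA5, fell from 311, 342 and 360 counts to 224, 214 and 284 counts, to 67.0% of its si-NC level (log2 fold change -0.58, adjusted p = 0.000234 from edgeR). DNAJC1 of the ER membrane (log2 fold change -0.29) and DNAJB2 (log2 fold change -0.32) fell too. DNAJC5, the cysteine string protein, which had the highest CPM of the list without division by length, had a log2 fold change of -0.05 (adjusted p = 0.446 from edgeR).

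All 13 nucleotide exchange factors were tested, among them HSPH1, HSPA4L and HYOU1 from above. Of these 13, 4 were higher and 1 was lower (38.5% called, beside 24.6% of all genes tested, median log2 fold change 0.05). GRPEL2, an exchange factor for HSPA9 in mitochondria, rose 1.29-fold (log2 fold change 0.37, adjusted p = 1.1e-05 from edgeR). BAG1 rose 1.18-fold (log2 fold change 0.24, adjusted p = 0.00306 from edgeR). BAG3, which ties HSP70 to selective autophagy and is itself a heat shock target, fell to 82.0% of its si-NC level, from 1150, 1111 and 1280 counts to 966, 1108 and 1018 counts (log2 fold change -0.29, adjusted p = 0.00111 from edgeR).

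Of 14 genes that bridge HSP70 to HSP90 or work with HSP90, 6 were higher and none was lower. The share called was 42.9%, beside 24.6% of all genes tested (13.2% higher), and the median log2 fold change was 0.09. HSP90AA1, the inducible cytosolic HSP90, went from 3233, 3357 and 3518 counts to 6134, 6361 and 6283 counts, a 1.75-fold rise (log2 fold change 0.80, standard error 0.045, adjusted p = 4.9e-11 from edgeR). HSP90AB1, the constitutive form and the most abundant gene of the list, rose 1.38-fold, from 1350 ± 11.9 CPM to 1860 ± 72.8 CPM (SD, n = 3 each, log2 fold change 0.47, adjusted p = 3.39e-08 from edgeR). AHSA1, the activator of the HSP90 ATPase, rose 1.42-fold (log2 fold change 0.51, adjusted p = 4.34e-07 from edgeR), and ST13 (HIP), which binds HSP70 in its ADP state, rose 1.22-fold (log2 fold change 0.29, adjusted p = 0.000214 from edgeR). Neither the adaptor STIP1 (HOP) nor the ubiquitin ligase STUB1 (CHIP), both named after their values were seen because they connect HSP70 to HSP90 and to degradation, passed the test, with log2 fold changes of 0.01 and -0.003.

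Of 26 heat shock factors and known heat shock targets, 24 were tested, with 11 higher and 4 lower. Calls made up 62.5%, beside 24.6% of all genes tested, and the median log2 fold change was 0.05. This list shares HSP90AA1, HSP90AB1, AHSA1, HSPH1, HSPA4L, DNAJA1, BAG3 and others with the lists above, so its count is not separate from theirs. HSPD1 (HSP60), the mitochondrial chaperonin, rose 1.38-fold, from 9262, 9408 and 9649 counts to 13641, 13794 and 14256 counts (log2 fold change 0.47, adjusted p = 4.69e-08 from edgeR). HSPE1, its co-chaperonin, rose 1.51-fold (log2 fold change 0.60, adjusted p = 1.52e-05 from edgeR), and DNAJB1 (HSP40), a J-domain target of heat shock factor 1, had a log2 fold change of 0.01 (adjusted p = 0.915 from edgeR). HSPE1 and DNAJB1 were chosen after their values were seen.

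**Figure D4:**
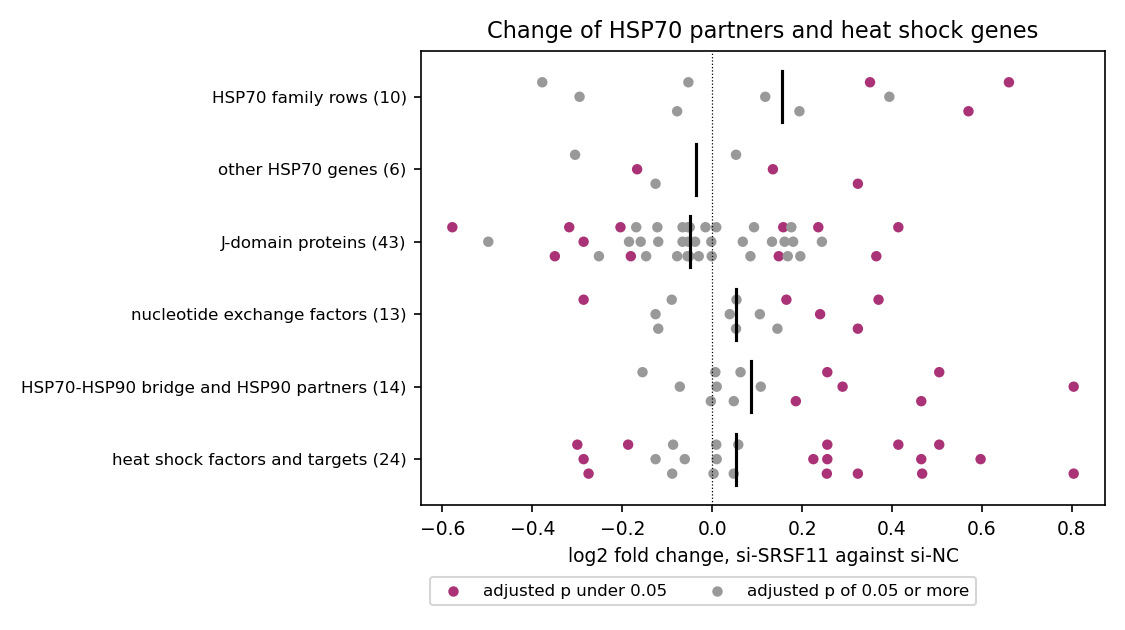
Log2 fold change in si-SRSF11 against si-NC cells of each tested gene (points) of the HSP70 family and of 5 lists of related genes, with the number tested in brackets, the median of each list as a black line and genes with an adjusted p under 0.05 in purple. HSP90AA1 (0.80) lies farthest right and DNAJB9 (-0.58) farthest left, and points of the heat shock list lie on both sides of 0.

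The heat shock patterns were searched in the same way in the promoters of the heat shock list, the HSP90 partners and the other HSP70 genes, where a gene with several RefSeq starts counts if any of them holds 3 units. Among all 27305 gene symbols with a promoter, 0.557% did so. Of 22 heat shock genes with a promoter, 5 did (CHORDC1, HSP90AA1, HSP90AB1, HSPD1 and SERPINH1). Of the 10 that were called higher, 4 held 3 units, as did 1 of the 12 others, which include HSPB8, not tested for change. FKBP4, also called higher, had no promoter here. The list holds known heat shock targets chosen with earlier results of these data known, so this split is a description and was not tested. The 1 among the 12 others was CHORDC1, with 3 matches in its promoter and a log2 fold change of 0.05 (adjusted p = 0.679 from edgeR). Its elements and those of SERPINH1 are not printed. The elements of 3 of the higher genes are printed to be set beside those of HSPA8. Positions count from the RefSeq start whose promoter held them, which was 1 of 2 starts for HSP90AA1 and HSPD1 and 1 of 3 for HSP90AB1, and both HSPD1 elements overlap:
HSP90AA1, 88 bases before the start, chr14:102087112-102087140, minus strand: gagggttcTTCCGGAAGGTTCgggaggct
HSP90AB1, 165 bases before the start, chr6:44247770-44247798, plus strand: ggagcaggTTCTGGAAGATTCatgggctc
HSP90AB1, 112 bases before the start, chr6:44247823-44247851, plus strand: tgagattgTTCTGGAAGCTTCtggattct
HSPD1, 245 bases before the start, chr2:197500065-197500090, minus strand: gcattTTCTGGAAAGTTCtggaaccg
HSPD1, 240 bases before the start, chr2:197500060-197500088, minus strand: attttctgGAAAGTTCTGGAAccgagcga
None of the 6 other HSP70 genes with a promoter held 3 units, HSPH1 included. Among the family members, HSPA8 held them and was higher, HSPA6 held them and had 1 read in all, and HSPA1B was called higher with 2 units.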

How the data were processed

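RNA-seq of 6 LoVo libraries (150 bp paired-end, poly-A selected) was analysed from the gene table in which the authors deposited raw counts per gene, without normalization. The submitters' processing notes name hg38, and gene names are those of GENCODE 29. The aligner and the counting program were not given in the sources used here. Samples were grouped by the deposited labels. A minimum of 10 counts in 3 or more libraries was required. The quasi-likelihood test of edgeR 4.0.16 (in R 4.3.3) was run on TMM-scaled counts with condition as the only term, with Benjamini-Hochberg adjustment over all tested genes. The fit was tested on simulated data. CPM were computed from the counts and TMM factors. An exact two-sided permutation test over samples served for single values. Alternatives were DESeq2 1.42.0, other scalings and filters, protein-coding genes only, HSPA1A and HSPA1B summed, a replicate block, and leaving out single libraries.

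The members and the gene lists were chosen with earlier results of these data known. Text names each member, SRSF11, each other HSP70 gene, genes that share sequence with a member, the 5 genes most like HSPA12A, and, of each list, up to 4 genes with the smallest adjusted p and the one of the highest CPM. Exceptions are marked where they appear. Sequences were read from GENCODE 29 transcripts and RefSeq promoters. Splice variants were not analysed here.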

Additional observations from a re-analysis of the deposited data

How the results depend on the processing

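No alternative called HSPA12A, and none ended the calls of HSPA8 or HSPA14 (ENSG00000187522). Between 2 and 3 member rows were called, as HSPA1B fell to a log2 fold change of 0.32 (adjusted p = 0.0609) with library-size scaling in edgeR and to 0.35 (adjusted p = 0.0722) in DESeq2. With each library left out, the J-domain count ranged from 7 to 11 and the inducible share differed by -0.212 to 0.0642 percentage points, turning to 0.0254 without si-NC replicate 3, 0.0481 without si-SRSF11 replicate 1 and 0.0642 without si-SRSF11 replicate 2. HSPA12A against the other members turned from -0.161 to 0.199 without HSPA8, and the rise of the family sum fell from 177 to 1.49 CPM. HSPA1L ranged from -0.50 to 0.148 with libraries left out, turning without si-NC replicate 3, and DNAJB1 ranged from -0.002 to 0.014 and turned to -0.026 with library-size scaling, -0.003 among protein-coding genes and -0.002 without si-SRSF11 replicate 2. Alternatives for single genes of the related lists were added after seeing the data. The cause of these changes was not tested. A change in low members such as HSPA2, HSPA12B and HSPA1A was not detectable at this depth unless large.

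The study speaks of pairs of RNA samples, but no source ties the replicate numbers to a shared culture or day. Deviations of same-numbered libraries correlated by 0.00528, 0.0437 and 0.0531, and those of differently numbered libraries by -0.05 to 0.00497. The same-numbered values were the higher ones, though all were small. As no source gives a pairing, the numbers were not used as pairs. The fit with the replicate block called 4036 genes in place of 3886 and left each member's call as it was, with a log2 fold change of 0.19 for HSPA12A.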

Other observations

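HSP70 pseudogenes had few counts. Of 19 HSP70 pseudogene rows, 9 had any count, none passed the filter, and they summed to between 3 and 24 counts per library. The most abundant, HSPA8P15, had 5, 3 and 2 counts in si-NC and 13, 8 and 5 counts in si-SRSF11 libraries. It was chosen after its values were seen and was not tested.

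The genes whose pattern over the 6 libraries was most like that of HSPA12A were taken from 10949 protein-coding genes with a mean log2 CPM of at least 2, by the root mean square difference in centred log2 CPM. They were RNASEH1 (0.0231), which cleaves RNA in RNA-DNA hybrids, USP3 (0.0312), a histone deubiquitinase, SMC6 (0.0338) and SMC3 (0.0374), parts of chromosome-structure complexes, and TCHP (0.0365), a keratin-binding protein. The median difference over all candidates was 0.163, and HSPA12A itself deviated from its own mean by 0.134. RNASEH1 had 24.8, 26.6 and 28.2 CPM in si-NC and 30.9, 33.5 and 26.9 CPM in si-SRSF11 libraries, with the same order of libraries within each group as HSPA12A. All points share the same 6 libraries, and the likeness is a description.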
